A study of Mus musculus with 2 samples.

Results

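The genes described here are those of hepcidin and iron handling. The list holds 10 genes by symbol: *Hamp*, *Slc40a1*, *Tfrc*, *Steap3*, *Slc11a2*, *Slc11a1*, *Fth1*, *Ftl1*, *Hmox1* and *Ireb2*. A listed gene was measured through every probe set whose platform annotation names that symbol alone. This gave 1 probe set for each of 9 genes, out of 22180 genes measured in this way. *Ftl1* had no such probe set. All 9 measured genes passed the filter on low values, which kept 13712 genes. The list was selected on the difference between these same 2 arrays, above all the large one of *Hamp*, so the differences of these genes are a description and carry no test.

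Mouse dendritic cells grown from bone marrow, labelled GMDC, were compared between 2 cultures, with 1 array each. One culture was given conditioned medium of E0771, a mammary tumour line from mouse, after the tumour cells had been exposed to topotecan, a drug that blocks topoisomerase I. The other was labelled as the control, with no statement of its medium, so tumour-conditioned medium and the topotecan exposure of its source cells cannot be told apart. The labels state no strain, genotype, age, number of animals, growth factor or duration of culture. With 1 array per culture no value has a replicate error, and every comparison is between these 2 arrays.

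Values are log2 intensities of probe sets. They ran from 0.02 to 13.50 with conditioned medium and from -0.26 to 13.42 in the control. The median of all values, 4.10, served as the filter level, below which signal was not separated from background here. Each difference is the conditioned-medium value minus the control value, and a difference of at least 2-fold is a fixed rule of size. By this rule 8.63% of the 13712 kept genes were higher with conditioned medium and 6.84% were lower. Of the dendritic cell markers, 10 of 11 measured were kept, with 4 at least 2-fold higher and 2 lower. The class II gene *H2-Ab1* read 11.31 with conditioned medium and 10.16 in the control, and *Itgax*, which encodes CD11c, 7.15 with conditioned medium and 8.18 in the control. *Zbtb46*, a marker of conventional dendritic cells, stayed below the filter level on both arrays, at 3.65 with conditioned medium and 3.65 in the control.

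Hepcidin is a small peptide hormone that binds ferroportin, the only known iron exporter of mammalian cells, and causes its internalization and degradation. The liver is its main source, but myeloid cells make it too during infection and inflammation, when it holds iron inside phagocytes. Interleukin-6 acting through STAT3 and bone morphogenetic proteins acting through SMAD factors are the best known inducers of the hepcidin gene. Inside cells, iron regulatory proteins bind stem-loops in messenger RNA, which stabilizes the transferrin receptor message and blocks ferritin translation when iron is scarce.

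Because *Hamp* and its neighbouring paralog *Hamp2* had unlike values on these arrays, the 250 bases before the annotated start of each gene are shown, as RefSeq gives them for GRCm38.p6. The *Hamp* stretch is chr7:30944030-30944279 and the *Hamp2* stretch chr7:30924182-30924431, both on the minus strand. Both read 5′ to 3′ towards the start. Capitals mark matches to TTCNNNGAA, the palindrome bound by STAT factors, and to GGCGCC, the core of the bone morphogenetic protein response element of the hepcidin promoter. Both strands were searched, and the motifs did not overlap.
Hamp: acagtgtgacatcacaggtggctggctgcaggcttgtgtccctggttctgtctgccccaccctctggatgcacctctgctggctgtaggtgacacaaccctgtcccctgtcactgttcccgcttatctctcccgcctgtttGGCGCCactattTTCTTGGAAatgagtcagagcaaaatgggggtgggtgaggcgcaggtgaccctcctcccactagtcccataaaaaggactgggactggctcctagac
Hamp2: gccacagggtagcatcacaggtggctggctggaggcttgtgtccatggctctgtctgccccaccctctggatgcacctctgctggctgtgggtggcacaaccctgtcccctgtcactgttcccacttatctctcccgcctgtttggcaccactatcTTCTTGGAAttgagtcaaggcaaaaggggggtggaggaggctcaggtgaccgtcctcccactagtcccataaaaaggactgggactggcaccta

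These stretches were identical at 227 of 247 aligned bases (91.9%). TTCTTGGAA lay 97 to 89 bases before the start in *Hamp* and 94 to 86 bases before it in *Hamp2*. GGCGCC lay 109 to 104 bases before the start of *Hamp* and was not among the letters of the *Hamp2* window. Of 32851 windows of 250 bases before annotated mouse gene starts, 7.02% held TTCNNNGAA and 9.59% held GGCGCC. Of the 10 listed genes, 7 had a window in the table, with 12 windows in all. Besides *Hamp*, one of the *Tfrc* windows held GGCGCC, and no window of another listed gene held either motif. A match describes letters and is not evidence of binding. The relation of these letters to the array values of *Hamp* and *Hamp2* was not tested.

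*Hamp*, the hepcidin gene (chromosome 7, probe set 17489363), had by far the largest difference of the 9 genes. Its log2 intensity was 8.65 with conditioned medium, against 2.50 in the control. The conditioned-medium value lay 4.55 above the filter level, whereas the control value lay below it. As deposited the difference of 6.14 is a ratio of 70.7. Against the filter level the ratio was 23.4, so the size depends on how the control's low signal is treated while the direction does not.

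The *Hamp2* probe set (17489357) read 2.33 with conditioned medium and 2.28 in the control. Both values lay below the filter level and differed by 0.06. The signal at the *Hamp* probe set was therefore not accompanied by signal at that of its closely related neighbour. Hepatocyte markers were low on both arrays: of 12 measured, 8 lay below the filter level in both cultures and 0 were at least 2-fold higher. Albumin (*Alb*) read 3.92 on each array. The marker list ran from 1.65 to 5.37 with conditioned medium and from 2.81 to 6.31 in the control. Of 13 markers of mammary epithelium, 7 lay below the filter level on both arrays, including *Epcam* at 3.24 with conditioned medium and 2.67 in the control. The genes *Cdh1*, *Krt19* and *Muc1* were higher past 2-fold, and the list ran from 2.63 to 10.21 with conditioned medium and from 2.67 to 6.42 in the control. The part of these markers in the *Hamp* value was not tested.

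Over the 2 arrays, the 3 kept genes with values nearest to those of *Hamp* were *Krt16*, *Fam3b* and *Ido1*. Their distances, taken as the Euclidean distance between the pairs of log2 values, were 0.44, 0.69 and 0.69. *Krt16*, a keratin gene, read 8.50 with conditioned medium and 2.92 in the control. *Ido1*, which encodes an interferon-inducible tryptophan-degrading enzyme, read 8.73 with conditioned medium and 3.19 in the control. With 2 arrays such nearness only says that these probe sets were low in one culture and high in the other.

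**Figure D1:**
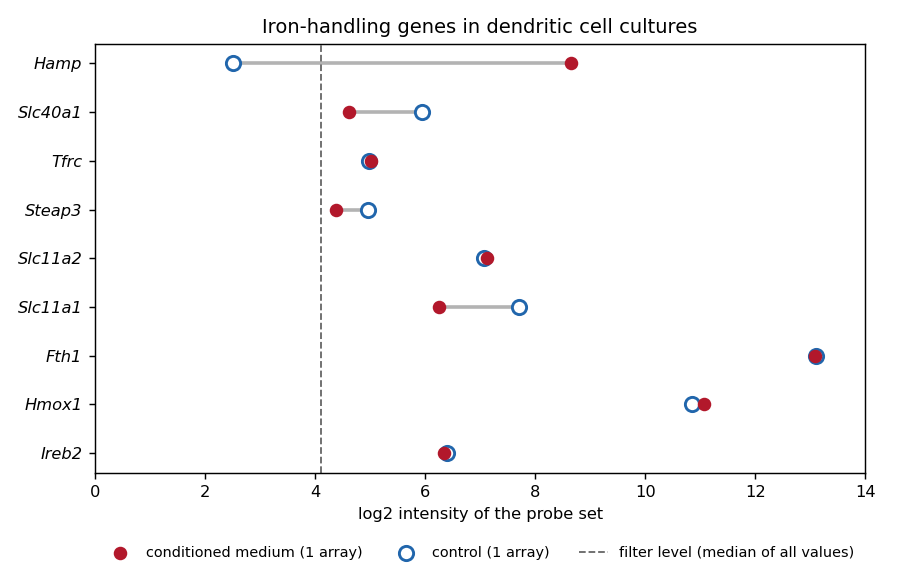
Log2 intensity of the 9 measured iron-handling genes, with filled circles for the conditioned-medium array and open circles for the control array. The dashed line is the filter level of 4.10. *Hamp* crosses that line, *Slc40a1* and *Slc11a1* are lower with conditioned medium, and the circles of *Tfrc*, *Slc11a2*, *Fth1* and *Ireb2* nearly coincide.

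*Slc40a1*, which encodes ferroportin, the iron exporter and hepcidin receptor, was lower in the culture in which *Hamp* was higher. It read 4.62 with conditioned medium, against 5.94 in the control, a log2 difference of -1.32 and a 2.50-fold lower intensity. The conditioned-medium value was only 0.53 above the filter level. Of all kept genes, 90.9% had a smaller absolute difference. In RNA of a whole culture, fewer cells of a type that expresses a gene and less RNA per cell cannot be told apart, and this holds for every difference here.

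*Slc11a1*, which encodes NRAMP1, a divalent metal transporter of the phagosome membrane in macrophages and neutrophils, was the other gene past 2-fold. It read 6.25 with conditioned medium and 7.71 in the control, a log2 difference of -1.46 and a 2.75-fold lower intensity. Both values were well above the filter level, and 92.5% of kept genes had a smaller absolute difference. With both genes, 2 of the 9 measured genes were at least 2-fold lower, beside 6.84% of all kept genes, and 1 of 9 was higher, beside 8.63%. Those shares are given for scale only, since the genes were chosen with such values known.

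On this array most neutrophil markers were lower as well, and macrophage markers were mixed. Of 15 neutrophil markers, 10 were lower past 2-fold and 0 higher with conditioned medium, and the median log2 difference was -1.69. In all, 12 differences were below 0 and 3 above it, those of *Cebpe* (0.80), *Ly6g* (0.74) and *Lcn2* (0.10). Of all kept genes, 6.84% were lower past 2-fold and 8.63% higher, and the median was -0.07. The neutrophil markers ranged from 3.03 to 10.53 with conditioned medium and from 5.47 to 12.16 in the control. Of 10 markers of macrophages, including those that recycle iron, 4 were lower and 2 higher, with a median of -0.36. They ranged from 3.46 to 12.37 with conditioned medium and from 3.64 to 12.13 in the control. *Csf1r*, the receptor for a macrophage growth factor, read 5.66 with conditioned medium and 8.58 in the control. *Adgre1*, which encodes an adhesion receptor of macrophages, read 6.87 with conditioned medium and 9.16 in the control. The 2 higher ones were *Vcam1* and *Timd4*. *Vcam1* read 7.21 with conditioned medium and 5.67 in the control. *Timd4* read 5.65 with conditioned medium and 3.64 in the control, where it lay below the filter level. *Spic*, a transcription factor of iron-recycling macrophages, differed by 0.28, at 4.74 with conditioned medium and 4.46 in the control. The part of these cell types in the lower *Slc11a1* and *Slc40a1* was not tested.

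Genes of transferrin-bound iron uptake lay between the 2-fold limits. *Tfrc* encodes transferrin receptor 1, which brings iron-loaded transferrin into the cell. It read 5.01 with conditioned medium and 4.98 in the control, a difference of 0.03. *Steap3* encodes the reductase that converts ferric to ferrous iron in the endosome. It read 4.37 with conditioned medium and 4.97 in the control, a log2 difference of -0.60, between the 2-fold limits. *Slc11a2* encodes DMT1, the transporter that moves ferrous iron out of the endosome, and read 7.12 with conditioned medium and 7.07 in the control, a difference of 0.05. *Tfrc* and *Steap3* lay less than 1 above the filter level on both arrays, where a difference in RNA can be compressed by background.

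*Tfrc* is abundant in dividing and in erythroid cells, so both kinds of marker are given beside it. Of 16 measured proliferation markers, 12 were at least 2-fold lower and all 16 differences were below 0, with a median of -1.90. They ranged from 3.93 to 9.58 with conditioned medium and from 5.91 to 10.51 in the control. Of all kept genes, 6.84% were at least 2-fold lower, and the median was -0.07. Erythroid markers were near background: of 6 measured, 3 lay below the filter level on both arrays, and the highest read 4.79 with conditioned medium and 4.25 in the control. The lower proliferation genes were thus not accompanied by a difference at the *Tfrc* probe set.

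Ferritin, the iron storage shell of heavy and light chains, had bright probe sets in both cultures. *Fth1*, the gene of the heavy chain that oxidizes iron, read 13.09 with conditioned medium and 13.10 in the control. Its difference of -0.01 changed sign when a trend of the difference on the level was removed (0.06) and after quantile normalization (0.11). The conditioned-medium value was 0.41 and the control value 0.32 below the highest value of its array, where a probe set can be close to saturation and a difference can be hidden. *Ftl1*, the gene of the light chain, is annotated only together with ferritin light chain pseudogenes. There were 6 such probe sets, and their signal cannot be assigned to *Ftl1*. Of these, 5 were bright, at 12.48 to 13.04 with conditioned medium and 12.87 to 13.42 in the control, with differences from -0.39 to -0.21. Among them 2 held equal values on each array, so they may not be separate measurements. The sixth read 4.43 with conditioned medium and 6.36 in the control, a difference of -1.93. All 6 were thus lower with conditioned medium, by amounts that did not match between the bright and the dim probe sets. Among the bright ones, 1 held the highest value of the control array (13.42), so saturation could hide a difference here too.

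*Hmox1* encodes haem oxygenase 1, the inducible enzyme that frees iron from haem. It read 11.08 with conditioned medium and 10.85 in the control, a log2 difference of 0.22. *Ireb2* encodes iron regulatory protein 2, the sensor that binds iron-responsive elements and is itself degraded when iron is plentiful. It read 6.34 with conditioned medium and 6.40 in the control, a difference of -0.05 as deposited and 0.04 after removal of the trend. In all, 5 of the 9 genes (*Tfrc*, *Slc11a2*, *Fth1*, *Hmox1* and *Ireb2*) differed by less than 0.25, as did 33.4% of all kept genes. The median over the 9 genes was -0.01, beside -0.07 over all kept genes. No gene had a second probe set to set its difference against. In other genes with several kept probe sets the differences had a pooled SD of 0.46 within genes, which is larger than each of these 5 differences and smaller than those of *Hamp*, *Slc11a1*, *Slc40a1* and *Steap3*. This SD holds no spread between cultures.

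**Figure D2:**
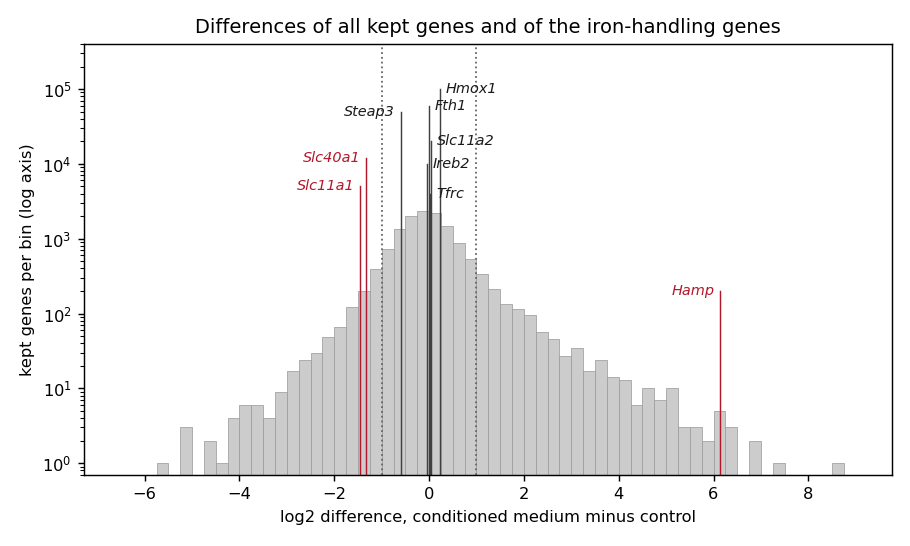
Histogram of the log2 differences (conditioned medium minus control) of the 13712 kept genes, with the number of genes per bin on a log axis and dotted lines at 2-fold. Lines mark the iron-handling genes, in red past 2-fold, and their heights only separate the names. *Hamp* lies in the upper tail at 6.14, *Slc11a1* and *Slc40a1* on the lower shoulder, *Steap3* at -0.60, and the others near 0.

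Genes that regulate hepcidin were mixed, with several cytokine and feedback genes higher and *Bmp6*, *Hjv* and *Tmprss6* near or below the filter level. Of 28 such genes measured, 25 were kept. Past 2-fold, 6 were higher and 0 lower, beside 8.63% and 6.84% of all kept genes. The median log2 difference was 0.36, beside -0.07 over all kept genes. This list was chosen with earlier results of these data known. *Il6* and *Il1b*, the genes of interleukin-6 and interleukin-1 beta, led the list. *Il6* read 11.51 with conditioned medium and 4.11 in the control, and *Il1b* read 9.19 with conditioned medium and 6.04 in the control. Of the receptor chains, *Il6st* (gp130) read 5.52 with conditioned medium and 4.53 in the control, just under 2-fold, whereas *Il6ra* differed by -0.21. *Stat3* read 6.64 with conditioned medium and 5.58 in the control, a 2.09-fold higher intensity. *Socs3*, a STAT3 target that inhibits the same pathway, read 8.68 with conditioned medium and 6.87 in the control and was 3.52-fold higher. These values are of the one with the higher mean among its 2 probe sets. With the mean of all probe sets, 6 genes of the list were again at least 2-fold higher.

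On the bone morphogenetic protein side, the SMAD target genes *Id1* and *Smad7* were also past 2-fold. *Id1* read 6.82 with conditioned medium and 5.65 in the control (2.25-fold), and *Smad7*, an inhibitory SMAD, read 5.84 with conditioned medium and 4.60 in the control (2.37-fold). *Smad6*, another inhibitory SMAD, was not higher, with a difference of -0.41. The ligand gene *Bmp2* differed by 0.62, at 4.75 with conditioned medium and 4.13 in the control. *Bmp6*, the main iron-responsive ligand in liver, lay below the filter level on both arrays, at 3.53 with conditioned medium and 3.77 in the control. The co-receptor gene *Hjv* read 4.18 with conditioned medium and 4.04 in the control, and *Tmprss6*, the protease that cleaves its product, 4.11 with conditioned medium and 4.03 in the control. Both were thus at the filter level. *Cebpa*, a transcription factor of the hepcidin promoter in liver, had the lowest difference, -0.89. Both *Id1* and *Smad7* respond to other signals as well, and which signal they followed was not tested.

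**Figure D3:**
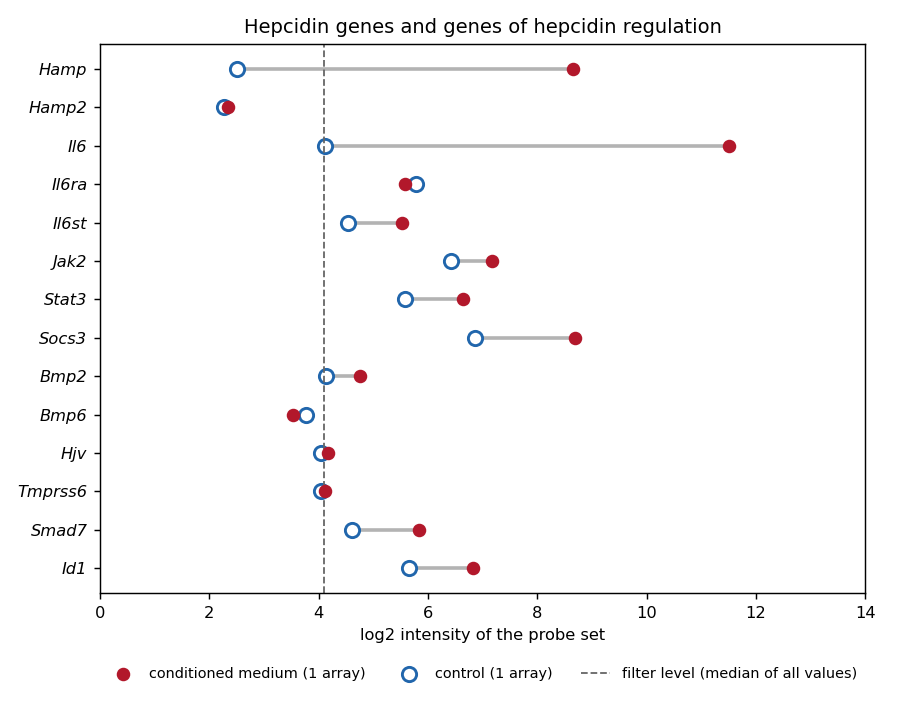
Log2 intensity of *Hamp*, its paralog *Hamp2* and 12 genes of hepcidin regulation, with filled circles for conditioned medium and open circles for the control. The 12 are a selection from the 28 measured genes. *Il1b* and the 2 lowest kept genes, *Cebpa* and *Smad6*, are not shown. *Hamp* and *Il6* are near or below the filter level of 4.10 (dashed) in the control and far above it with conditioned medium, while *Hamp2*, *Bmp6*, *Hjv* and *Tmprss6* stay at or below that level on both arrays.

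Among the other genes of iron entry and release, the metalloreductase *Steap1* stood out on the higher side. Of 17 measured, 12 were kept. Past 2-fold lay 1 higher and 1 lower gene, beside 8.63% and 6.84% of all kept genes. The median of the list was 0.05 (-0.02 after quantile normalization), beside -0.07 over all kept genes. *Steap1* read 6.94 with conditioned medium and 4.80 in the control, a 4.43-fold higher intensity, and its relative *Steap2* read 5.61 with conditioned medium and 4.61 in the control, just short of 2-fold higher. *Steap3* thus differed in the other direction from these relatives, and *Steap4* lay below the filter level on both arrays. *Ltf*, the gene of lactoferrin, an iron-binding protein of neutrophil secondary granules, read 6.13 with conditioned medium and 7.78 in the control, a difference of -1.65. It also stands in the neutrophil list. *Lcn2*, the gene of the siderophore-binding lipocalin 2, read 9.11 with conditioned medium and 9.01 in the control, a difference of 0.10. *Snx3*, a sorting nexin that recycles the transferrin receptor, had a difference of -0.99.

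The cytosolic iron sensing and chaperone genes all lay between the 2-fold limits (9 of 9), with a median of -0.59. *Aco1*, the gene of iron regulatory protein 1, read 5.50 with conditioned medium and 6.32 in the control, a difference of -0.82, unlike *Ireb2*. *Fbxl5*, the ubiquitin ligase subunit that targets iron regulatory proteins when iron is plentiful, had the highest difference of the list, 0.42, followed by its partner *Skp1* at 0.38. *Ncoa4*, the receptor that carries ferritin to the lysosome, read 6.53 with conditioned medium and 7.12 in the control, a difference of -0.59. *Bola2*, a cytosolic iron-sulfur chaperone component, differed by -0.79.

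Both mitoferrin genes were higher, and 10 of 17 kept genes of mitochondrial iron and iron-sulfur cluster assembly were below 0. The median over all kept genes was below 0 as well (-0.07), so most of those were also below 0. Of 18 genes measured from this list, 17 were kept. Past 2-fold lay 2 higher genes and 1 lower gene, beside 8.63% and 6.84% of all kept genes. The median of the list was -0.34. *Slc25a37* (mitoferrin 1), which brings iron into mitochondria, read 7.30 with conditioned medium and 5.73 in the control, 2.96-fold higher. *Slc25a28* (mitoferrin 2) read 8.32 with conditioned medium and 6.87 in the control, 2.73-fold higher. *Lyrm4*, an accessory subunit of the cysteine desulfurase, read 9.13 with conditioned medium and 10.73 in the control, but its second probe set differed by 0.30, and over the mean of both no gene of the list was at least 2-fold lower. *Abcb8*, a mitochondrial ABC transporter, read 4.58 with conditioned medium and 5.58 in the control, just within 2-fold.

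The kept haem synthesis genes were below 0, by small amounts. All 9 of them had negative differences, also after quantile normalization and after removal of the trend. Past 2-fold lay 0 of them, and their median was -0.43, beside -0.07 over all kept genes. Without the filter, 9 of 10 measured genes were below 0. The other, *Cpox*, lay just below the filter level on both arrays. It read 4.04 with conditioned medium and 3.93 in the control, a difference of 0.11. *Fech*, the gene of ferrochelatase, which inserts iron into the porphyrin ring, read 5.67 with conditioned medium and 6.22 in the control. Among the kept genes the differences ran from -0.55 for *Fech* and -0.51 for *Ppox* to -0.32 for *Tmem14c* and -0.20 for *Urod*.

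Haem transport and breakdown genes also lay mostly below 0. Among the 14 that were kept, 2 were lower past 2-fold and 0 higher, beside 6.84% and 8.63% of all kept genes. The median of the list was -0.45, beside -0.07 over all kept genes. The lower members were *Abcb6*, a porphyrin transporter, at 4.45 with conditioned medium and 5.68 in the control, and *Blvra*. *Blvra* encodes biliverdin reductase A, which acts after haem oxygenase, and read 8.02 with conditioned medium and 9.20 in the control, a 2.26-fold lower intensity. *Hmox1* itself had a small positive difference (0.22). *Pgrmc1*, a haem-binding protein, and *Spic* had the highest differences of the list, 0.37 and 0.28.

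NRF2 and BACH1 control *Hmox1* together with antioxidant genes, and those genes did not differ in one direction. Among the 16 that were kept, 1 was higher past 2-fold and 1 lower, beside 8.63% and 6.84% of all kept genes. The median of the list was 0.23, but -0.05 with the filter at the 75th percentile. *Slc7a11*, the cystine transporter subunit, read 6.15 with conditioned medium and 4.66 in the control, 2.80-fold higher, and its second probe set differed by 1.23. *Keap1*, the inhibitor of NRF2, differed by 0.90. *Cat*, the gene of the haem enzyme catalase, read 5.53 with conditioned medium and 7.15 in the control, 3.08-fold lower. *Nfe2l2* (NRF2) and *Bach1* differed by -0.54 and 0.27, and *Gclc*, a glutathione synthesis gene, by -0.58.

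**Figure D4:**
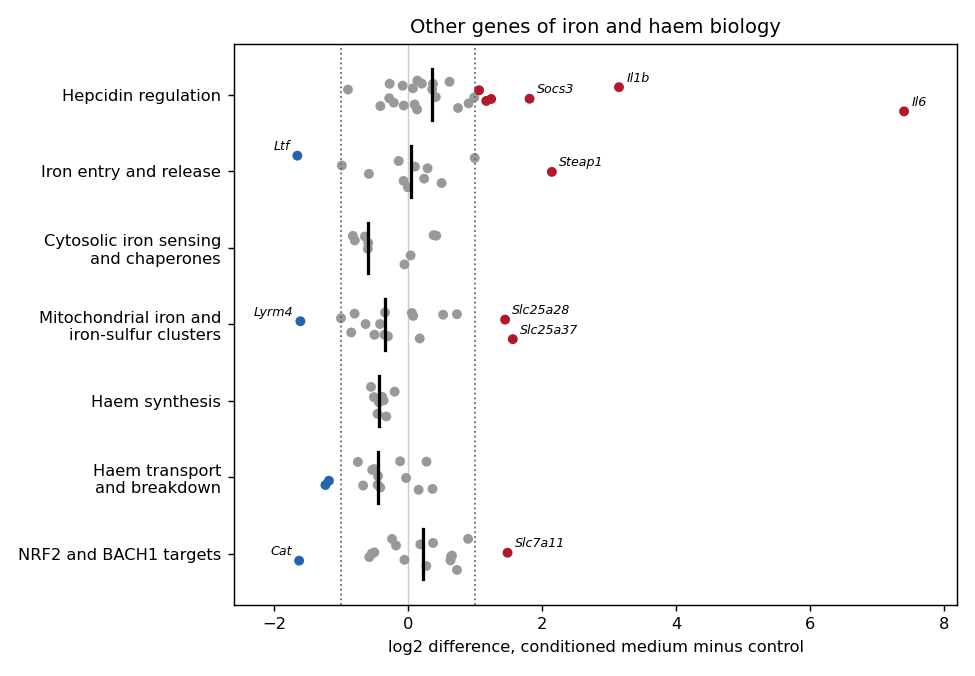
Log2 differences (conditioned medium minus control) of kept genes in 7 lists of iron and haem biology, 1 point per gene, with red at least 2-fold higher, blue at least 2-fold lower and black bars for medians. Points are spread vertically only for legibility, and genes beyond 1.4 in either direction are named. Hepcidin regulation reaches highest, and haem synthesis lies in a narrow band below 0.

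Across the 7 lists, 102 of 112 measured genes were kept, and past 2-fold lay 10 higher and 5 lower genes. Their median was -0.06. For all kept genes the shares past 2-fold were 8.63% and 6.84%, and the median was -0.07. The lists as a whole thus did not stand apart from all genes in these counts.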

How the data were processed

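RNA of 2 mouse bone marrow-derived dendritic cell cultures was measured, with 1 biotin-labelled Affymetrix array each. The authors deposited a table of probe set values, read as log2 intensity because of their range, with medians of 4.09 (conditioned medium) and 4.10 (control). Affymetrix Expression Console is the tool in the submitters' processing notes. The sources used here give no version, algorithm, log base or genome build, so no gene coordinates are printed apart from those of the RefSeq promoter windows. Similar medians would hide a shift of most genes.

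Of 41345 probe sets, 23521 had 1 gene symbol in the platform annotation, 1814 had several and 16010 were not in it. A gene was represented by its probe set with the highest mean, and kept if its higher value reached 4.10. No test was possible with 1 array per culture, and the number of arrays limits the precision.

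The iron genes, lists and markers were chosen with earlier results of these data known. Named were all iron genes, the 2 highest and 2 lowest kept genes of each list, 15 genes of hepcidin and iron regulation whatever their values, and the 3 genes nearest to *Hamp*. *Socs3*, *Id1*, *Smad7*, *Steap4*, *Cpox* and the named markers were added after their values were seen. Of the listed genes, 11 had no probe set with a single symbol here. The counting was tested on simulated data. Python 3.11.15, numpy 2.4.6, pandas 2.3.3, statsmodels 0.14.6, Biopython 1.88 and matplotlib 3.10.9 were used.

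Alternatives were quantile normalization, subtraction of a lowess trend (fraction 0.3, 3 iterations), the mean of all probe sets, a filter at the 75th percentile (5.48), no filter, raising values under 4.10 to it, and 1.5-fold and 3-fold size rules.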

Additional observations from a re-analysis of the deposited data

How the results depend on the processing

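*Hamp* as the higher gene and *Slc40a1* and *Slc11a1* as the 2 lower ones kept their direction and stayed past 2-fold under quantile normalization, lowess subtraction, the mean of all probe sets, both other filters and raised low values. The *Hamp* difference ran from 4.55 (low values raised to the filter level) to 6.21, that of *Slc11a1* from -1.49 to -1.36 and that of *Slc40a1* from -1.33 to -1.26. With a 3-fold rule 0 of the 9 genes were lower, and with a 1.5-fold rule *Steap3* joined the lower genes. The filter at the 75th percentile left out *Tfrc* and *Steap3*. Over the 7 lists, 21 genes were higher and 18 lower at 1.5-fold, and 4 higher and 3 lower at 3-fold, against 10 and 5 at 2-fold; the size rule itself sets these counts. Of the 5 genes within 0.25 of no difference, *Fth1* and *Ireb2* changed sign. *Fth1* turned to 0.06 and *Ireb2* to 0.04 under lowess subtraction, and *Fth1* to 0.11 under quantile normalization. *Tfrc*, *Slc11a2* and *Hmox1* stayed above 0 in every setting that kept them, and *Hmox1* reached 0.30 under lowess subtraction. With 1 array per culture the sign of such small differences is not settled. No paired analysis was possible because each culture had 1 array. Signal close to the filter level limits *Slc40a1*, *Tfrc* and *Steap3*. Signal near the top of the array limits *Fth1* and the bright ferritin light chain probe sets.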
